A study of Mus musculus with 12 samples.

Results

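ATP-binding cassette (ABC) transporters are membrane pumps that use ATP to move lipids, sterols, peptides, conjugated drugs and other compounds across membranes. They were examined as a family in primary adipocytes of mouse epididymal fat. Members were all genes of the table with a symbol of the form Abca to Abcg followed by a number, with the read counts of their transcripts summed per symbol. This gave 50 of 24541 genes: 16 ABCA, 10 ABCB, 10 ABCC, 4 ABCD, 1 ABCE, 3 ABCF and 6 ABCG genes. Of these, 39 had enough reads to be tested and 11 did not.

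The mice were of the C57BL/6N strain, and each of the 12 libraries was made from poly-A RNA of their epididymal adipocytes. The 4 groups held 3 libraries each: mice with floxed Crtc2 alleles (Crtc2 f/f), labelled WT, at 3 months (young WT) and at 18 months (old WT), and mice labelled Crtc2 AKO, an adipocyte-specific knockout, at 3 months (young AKO) and at 18 months (old AKO). The protein of Crtc2 works with CREB, which turns cyclic AMP signals into transcription. The labels do not name the Cre driver of the knockout, and give no mouse of origin for a library, so that the spread behind each p-value is the spread between libraries, which may be technical.

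Crtc2 itself went against the labels, and AKO and WT therefore mean the groups as labelled throughout. It had 53.9, 67.2 and 79.4 CPM in young WT, 164, 300.3 and 280.2 in young AKO, 45.3, 51.6 and 49.97 in old WT and 151, 161 and 154 in old AKO, where CPM is the read count scaled to the TMM-adjusted library size. The libraries labelled AKO lay above the WT libraries at both ages, by log2 differences of 1.89 ± 0.21 (edgeR, adjusted p = 0.00730) in young and 1.66 ± 0.21 (edgeR, adjusted p = 0.0125) in old mice. The first principal component of all genes (48.4% of the variance) put old WT replicate 3 at 103.8, while replicates 1 and 2 of that group had scores of 72.4 and 69.2. The second component (12.5%) gave young WT replicate 1 a score of 23.1, whereas replicates 2 and 3 scored -50.5 and -45.9. Where a member called with all 12 libraries lost its call without both of these libraries, that value stands beside it. Calls gained without them are given for some members only. That fit called 8 and 5 members between the genotypes in young and old mice, and 11 and 16 with age in WT and AKO. Over all genes it called 856, 512, 3641 and 4100 of 15290 in the same order. With all 12 libraries the called genes were 147, 897, 3451 and 2766 of 15068. A member said not to be called was not called in the fit of all 12 libraries. Adipocyte markers were abundant in every library, with a summed level of 42509 to 49411 CPM in young WT, 38896 to 47054 in young AKO, 32199.5 to 39459 in old WT and 42049.8 to 45169.9 in old AKO. Macrophage markers summed to 380.0 to 535 CPM in young WT, 261 to 298 in young AKO, 1204 to 5999 in old WT and 429.5 to 609 in old AKO, and the highest value was that of old WT replicate 3.

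The subfamilies differ in what they carry and where they sit. ABCA1 and ABCG1 export cholesterol and phospholipid to lipoproteins under the control of liver X receptors. ABCD2 and ABCD3 bring fatty acyl-CoAs into peroxisomes, and several ABCB proteins serve the mitochondrion. P-glycoprotein (ABCB1), ABCG2 and many ABCC proteins expel drugs, conjugates and signalling molecules such as cyclic nucleotides from the cell. ABCE and ABCF proteins have no membrane domain and act on the ribosome. In fat, ABCD2 is known for its high level in adipocytes, and the sterol exporters for the handling of the large cholesterol store of the lipid droplet.

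Per transcript length, Abcd2 was the most abundant member in these adipocytes. Its level was 141 FPKM on average over the 12 libraries (FPKM, fragments scaled to transcript length and library size), and it ranked 508 of 24541 genes by mean FPKM. The next were the cholesterol exporter Abca1 at 38.3 FPKM, the peroxisomal Abcd3 at 34.6 FPKM, the translation factor Abcf1 at 26.5 FPKM and the mitochondrial Abcb8 at 25.3 FPKM. In all, 12 tested members had a mean FPKM from 10 to 100, 19 from 1 to 10 and 7 under 1. Abcd2 alone made up 28.3% to 35.0% of the summed FPKM of the family in young libraries of both genotypes, 18.0% to 24.4% in old WT and 27.5% to 29.7% in old AKO. The family's share of all reads lay between 0.2326% and 0.2789% in the 12 libraries.

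**Figure D1:**
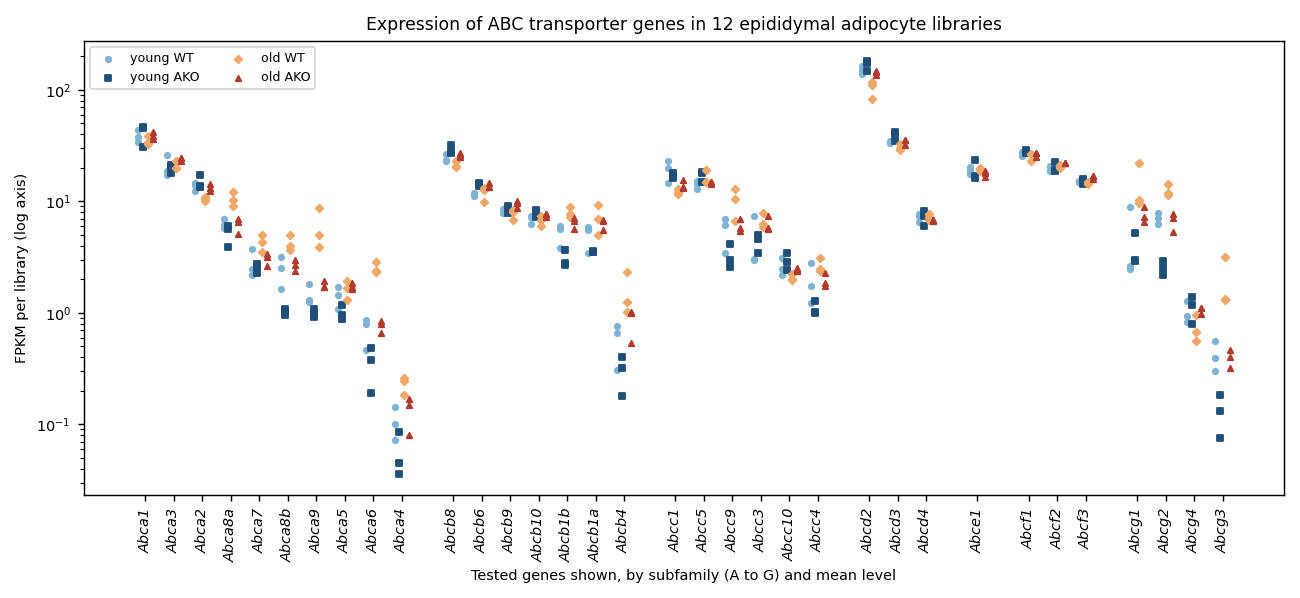
Levels of tested ABC genes with an FPKM above 0 in every library, by subfamily and mean level; each point is 1 library (3 per group), on a log axis of FPKM. Abcd2 lies highest, at 82.6 to 180.2 FPKM, and the lowest gene shown, Abca4, lies at 0.0356 to 0.262 FPKM.

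Windows before 6 transcription starts are shown because Abcg2 was called in all 4 pairwise comparisons, Abca8b and Abca9 carry large changes described below, and CREB, the partner of Crtc2, is known to bind the palindrome TGACGTCA (the cyclic AMP response element). Each window is the 250 bases before a RefSeq start on the GRCm38.p6 build (mm10), and capitals mark TGACG, the core of that element, on either strand, including the full palindrome where both copies overlap. Abcg2 has 3 windows, all on the + strand. The most upstream lies at chr6:58584283-58584532, the next at chr6:58596422-58596671, before the start of the transcript in the expression table, and the last at chr6:58640296-58640545, before a start inside the gene. The Abce1 window lies at chr8:79711741-79711990, that of Abca8b at chr11:109995846-109996095 and that of Abca9 at chr11:110168154-110168403, all on the - strand.
Abcg2, most upstream start: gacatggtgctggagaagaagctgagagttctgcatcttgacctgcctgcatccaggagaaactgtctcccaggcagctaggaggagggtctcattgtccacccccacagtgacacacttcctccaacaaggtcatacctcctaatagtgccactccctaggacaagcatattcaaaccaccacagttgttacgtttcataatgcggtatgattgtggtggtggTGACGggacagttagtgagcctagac
Abcg2, start of the transcript in the table: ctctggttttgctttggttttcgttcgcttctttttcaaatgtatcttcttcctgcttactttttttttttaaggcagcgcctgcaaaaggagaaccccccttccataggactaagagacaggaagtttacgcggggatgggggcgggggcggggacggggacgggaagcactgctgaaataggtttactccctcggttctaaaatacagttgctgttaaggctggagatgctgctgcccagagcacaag
Abcg2, internal start: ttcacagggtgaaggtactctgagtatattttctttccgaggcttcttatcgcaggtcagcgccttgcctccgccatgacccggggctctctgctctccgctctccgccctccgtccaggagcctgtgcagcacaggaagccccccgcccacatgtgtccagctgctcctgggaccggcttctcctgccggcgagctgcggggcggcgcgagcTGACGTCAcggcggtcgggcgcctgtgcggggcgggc
Abce1: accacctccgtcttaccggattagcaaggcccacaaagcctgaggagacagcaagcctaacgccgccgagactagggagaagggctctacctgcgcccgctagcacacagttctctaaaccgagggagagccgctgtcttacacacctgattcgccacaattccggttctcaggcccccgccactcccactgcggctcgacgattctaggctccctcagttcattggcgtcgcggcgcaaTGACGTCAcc
Abca8b: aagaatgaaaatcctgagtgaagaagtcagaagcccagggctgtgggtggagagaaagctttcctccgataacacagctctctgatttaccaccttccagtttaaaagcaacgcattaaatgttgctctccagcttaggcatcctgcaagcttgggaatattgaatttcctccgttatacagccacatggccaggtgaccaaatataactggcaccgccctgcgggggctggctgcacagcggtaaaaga
Abca9: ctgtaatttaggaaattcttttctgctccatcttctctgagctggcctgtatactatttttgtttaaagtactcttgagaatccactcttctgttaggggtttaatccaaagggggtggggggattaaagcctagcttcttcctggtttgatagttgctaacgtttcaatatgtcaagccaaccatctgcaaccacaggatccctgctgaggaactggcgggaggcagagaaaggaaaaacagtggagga

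RefSeq windows were found for 38 of the 50 members, 45 windows in all. Abca6, also called in all 4 pairwise comparisons, had no window and could not be searched. The full TGACGTCA was in 2 of them, the internal Abcg2 start and Abce1, against 1.55% of 32851 windows of the same length over all genes. The core TGACG, on either strand and including the full palindrome, was in 9 of 45 member windows and in 17.8% of all. The most upstream Abcg2 window holds TGACG but not the full palindrome. The Abcg2 window at the start of the table's transcript and those of Abca8b and Abca9 hold no TGACG. The DR4 element, a direct repeat of AGGTCA with 4 bases between that liver X receptors are known to bind, searched on both strands, was in 0 member windows and in 0.0152% of all. A match is a description of these letters only, and no match says only that they are not in this window.

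More members were called with age than between the genotypes. With an adjusted p under 0.05 counted as called, 11 of the 39 tested members differed between old and young WT (6 higher and 5 lower with age) and 8 between old and young AKO (6 higher and 2 lower). These were 28.2% and 20.5% of the tested members, against 22.9% and 18.4% of all 15068 genes tested (14.2% higher and 8.73% lower in WT, 10.4% higher and 7.93% lower in AKO), so the family's share lay near that of all genes. AKO differed from WT in 3 members in young mice, all lower, and in 5 in old mice, all lower. These were 7.69% and 12.8% of the tested members, against 0.976% and 5.95% of all genes in either direction. Of all genes 0.79% were lower and 0.186% higher in young AKO, and 5.16% lower and 0.796% higher in old AKO. The old genotype comparison depended on each old AKO library: without replicate 1, 2 or 3 of that group the 897 genes called fell to 12, 5 and 4, and 0 members were called. In these libraries 24 tested members were called in none of the comparisons, 15 in at least 1, 4 with age in both genotypes, and Abcg2 and Abca6 in all 4. The same overlaps over all genes are not given here, so these counts are not a result about the family. The median log2 fold change of the tested members was 0.04 and -0.03 for AKO against WT in young and old, and 0.06 and -0.02 for old against young in WT and AKO. Over all genes the same medians were 0.01, -0.01, 0.03 and -0.01. The comparisons share groups (old WT, for instance, enters both an age and a genotype comparison), so their values are set side by side and are not independent of each other.

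**Figure D2:**
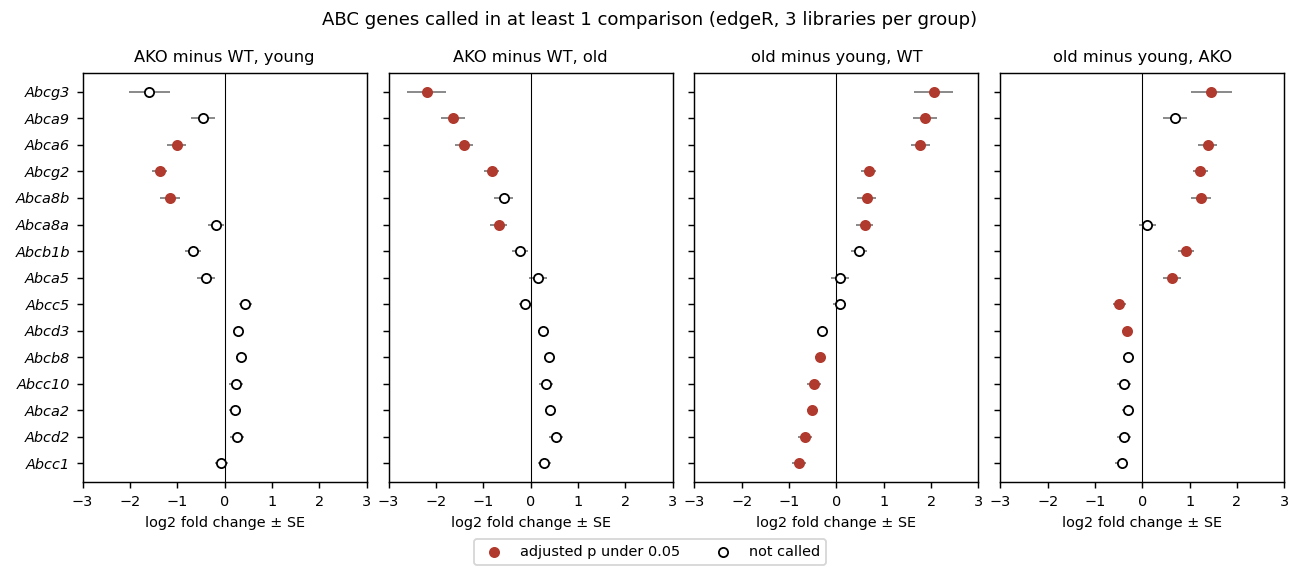
Log2 fold change ± SE (edgeR, 3 libraries per group) of the 15 members called in at least 1 comparison, in each of the 4 comparisons; filled points have an adjusted p under 0.05. Abcg3, Abca9, Abca6, Abcg2 and the Abca8 genes lie below 0 in both genotype panels and above 0 in both age panels, while Abcd2, Abca2 and Abcb8 lie above 0 in the former and below 0 in the latter.

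Abcg2 was lower in the libraries labelled AKO at both ages and higher with age in both genotypes. It encodes the breast cancer resistance protein, an exporter of urate, porphyrins and many drugs that also marks some stem cells and vessels (chromosome 6, 58596672 to 58692451, mm10). It had 16.2, 20.04 and 18.6 CPM in young WT, 8.09, 6.92 and 6.21 in young AKO, 27.2, 33.4 and 27.3 in old WT and 18.6, 17.6 and 13.3 in old AKO. Young AKO was lowest and old WT highest, no library overlapped between the groups of any of the 4 comparisons, and young WT and old AKO lay between. The log2 difference between AKO and WT was -1.37 ± 0.16 in young (edgeR, adjusted p = 0.00730) and -0.82 ± 0.15 in old mice (edgeR, adjusted p = 0.0189). With age it rose by 0.68 ± 0.15 in WT (edgeR, adjusted p = 0.0123) and by 1.23 ± 0.16 in AKO (edgeR, adjusted p = 0.00216). These 4 comparisons were also called in the fit without the 2 libraries that stand apart, old WT replicate 3 and young WT replicate 1. The young genotype call was lost without young AKO replicate 3 (adjusted p = 0.0538), the WT age call without old WT replicate 2 (adjusted p = 0.0503), and the old genotype call without any 1 of the 3 old AKO libraries (adjusted p up to 0.120, edgeR).

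Abcg3, a rodent relative of Abcg2, followed the same order at a much lower level. It had 1.77, 0.942 and 1.25 CPM in young WT, 0.614, 0.440 and 0.257 in young AKO, 3.77, 3.84 and 8.90 in old WT and 1.38, 1.22 and 0.993 in old AKO. Old WT lay above every other group, with its highest value in old WT replicate 3, and young AKO lay below every other group. AKO was lower than WT in old mice by a log2 difference of -2.20 ± 0.41 (edgeR, adjusted p = 0.0189), or -1.66, adjusted p = 0.0302 without the 2 libraries that stand apart. In young mice the difference was -1.60 ± 0.43 and did not pass the test (edgeR, adjusted p = 0.0841). Age raised it in WT by 2.06 ± 0.41 (edgeR, adjusted p = 0.00822) and in AKO by 1.46 ± 0.43 (edgeR, adjusted p = 0.0402), the latter lost without any 1 of the old AKO libraries or without young AKO replicate 2 or 3 (adjusted p up to 0.135). Its old genotype call was lost without any 1 of the old AKO libraries. Because the 2 genes are related in sequence, the share of reads given to each by the counting is uncertain.

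Of the ABCA genes of the chromosome 11 cluster, Abca6, Abca8a, Abca8b and Abca9 were each called lower in AKO at 1 age or both and higher with age in 1 genotype or both, while Abca5 was called only with age in AKO. Abca8b, Abca8a, Abca9, Abca6 and Abca5 lie side by side from 109933406 to 110337716 (mm10) and encode related transporters whose cargo is taken to be lipid. Abca6 (chromosome 11, 110176821 to 110251776) had 3.09, 3.22 and 2.54 CPM in young WT, 1.61, 1.74 and 1.03 in young AKO, 9.81, 10.6 and 9.87 in old WT and 4.10, 3.35 and 3.96 in old AKO. Every old WT library was above every other library, and the groups of all 4 comparisons lay apart. Abca6 was lower in AKO by -1.02 ± 0.20 in young (edgeR, adjusted p = 0.0455) and -1.41 ± 0.20 in old mice (edgeR, adjusted p = 0.0189). It rose with age by 1.77 ± 0.20 in WT (edgeR, adjusted p = 0.00123) and 1.38 ± 0.20 in AKO (edgeR, adjusted p = 0.00361), and both age calls were kept in all 12 fits that leave out 1 library.

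Abca9, next to it (chromosome 11, 110100822 to 110168153), had 11.7, 8.31 and 8.19 CPM in young WT, 7.45, 6.32 and 6.89 in young AKO, 29.9, 22.9 and 50.8 in old WT and 11.8, 10.7 and 10.7 in old AKO. Old WT was above all other groups, and old WT replicate 3 was the highest library. Abca9 was lower in old AKO by -1.64 ± 0.25 (edgeR, adjusted p = 0.0189), or -1.24, adjusted p = 0.00691 without the 2 libraries that stand apart. It rose with age in WT by 1.88 ± 0.26 (edgeR, adjusted p = 0.00265), or 1.66, adjusted p = 0.000451 without those libraries. The difference in young mice was -0.45 ± 0.25 (edgeR, adjusted p = 0.356) and with age in AKO 0.68 ± 0.25 (edgeR, adjusted p = 0.0808), neither past the threshold. The latter was called without both libraries that stand apart (0.69, adjusted p = 0.00402, edgeR).

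Abca8b, linked in mice to cholesterol export, had 20.3, 15.9 and 10.7 CPM in young WT, 7.30, 6.48 and 7.19 in young AKO, 23.1, 28.9 and 20.95 in old WT and 17.8, 14.8 and 16.7 in old AKO. The young AKO libraries were the lowest and lay close together. It fell with the AKO label in young mice by 1.16 ± 0.21 on the log2 scale (edgeR, adjusted p = 0.0310) and rose with age in AKO by 1.23 ± 0.21 (edgeR, adjusted p = 0.00533) and in WT by 0.64 ± 0.20 (edgeR, adjusted p = 0.0444). Its close copy Abca8a had 35.9, 39.9 and 34.2 CPM in young WT, 24.3, 34.4 and 38.04 in young AKO, 54.99, 64.2 and 47.2 in old WT and 38.1, 28.9 and 37.1 in old AKO. Abca8a was lower in old AKO than in old WT by -0.68 ± 0.18 (edgeR, adjusted p = 0.0477) and higher in old than in young WT by 0.60 ± 0.18 (edgeR, adjusted p = 0.0336). Reads of the 2 copies can be split by the counting in ways that the table does not show. Abca5, a lysosomal protein at the end of the cluster, had 14.8, 12.3 and 9.33 CPM in young WT, 7.98, 10.7 and 8.99 in young AKO, 15.2, 13.002 and 10.1 in old WT and 15.02, 13.4 and 14.2 in old AKO, and was called only with age in AKO (0.62 ± 0.19, adjusted p = 0.0452, edgeR).

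Several of these calls were close to the threshold and depended on single libraries. In young mice the genotype call of Abca6 was lost without young WT replicate 2, young AKO replicate 1 or 3, old WT replicate 1 or 2 or any 1 of the old AKO libraries (adjusted p up to 0.151). That of Abca8b was lost without young WT replicate 2, old WT replicate 1, old AKO replicate 2 or any 1 of the young AKO libraries (adjusted p up to 0.147). In old mice the calls of Abca6 and Abca9 were lost without any 1 of the 3 old AKO libraries (adjusted p up to 0.120), and that of Abca8a without any 1 library other than young AKO replicate 1 (adjusted p up to 0.179) and without both libraries that stand apart (-0.77, adjusted p = 0.0663). The WT age call of Abca8b was lost without any 1 library other than young WT replicate 1 (adjusted p up to 0.171). That of Abca8a was lost without old WT replicate 1 or 2, old AKO replicate 3 or any 1 of the young WT libraries (adjusted p up to 0.127). The AKO age call of Abca5 was lost without young WT replicate 2, young AKO replicate 1 or 3, old WT replicate 2 or any 1 of the old AKO libraries (adjusted p up to 0.138, all edgeR).

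Markers of other cell types were also called, in numbers that differed between the comparisons. The shares of all genes called in each comparison are those given above beside the members. Of 14 macrophage markers, 13 were lower in old AKO than in old WT (median log2 difference -2.38) and 13 higher in old than in young WT (median 2.61), while 5 were higher with age in AKO and 0 differed between the young genotypes, with the summed levels given above. Progenitor and fibroblast markers, 11 in number, summed to 1282 to 1540.3 CPM in young WT, 1115 to 1335 in young AKO, 1582 to 1808 in old WT and 878 to 1072 in old AKO. In young and old mice 3 and 5 of them were lower in AKO, and with age 10 were higher and 1 lower in WT, and 7 higher and 1 lower in AKO. A sum weighs the most abundant markers most. With age in AKO the sum of this list fell, although the median log2 fold change of its markers was 1.55. Of 12 endothelial markers, which summed to 803 to 1533 CPM in young WT, 516 to 701 in young AKO, 1323 to 2411 in old WT and 1004 to 1565 in old AKO, 1 was lower in young AKO, 3 were higher with age in WT and 9 with age in AKO. Mesothelial markers summed to 22.03 to 83.2 CPM in young WT, 8.92 to 27.8 in young AKO, 93.8 to 171 in old WT and 51.3 to 119 in old AKO, and 8 of the 9 tested were higher with age in AKO and 3 in WT. B and plasma cell markers reached at most 24.95 CPM in sum and T and NK cell markers 2.63 CPM. Neutrophil and mast cell markers summed to at most 16.7 and 30.6 CPM, and those of epididymis and testis to 64.9 CPM in old AKO replicate 1. Ly6g, Defb20, Spink11 and Lcn5 had 0 reads. In this bulk RNA, fewer cells of a type and less RNA per cell cannot be told apart, and the part of these cell types in the values of the ABC genes was not tested.

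**Figure D3:**
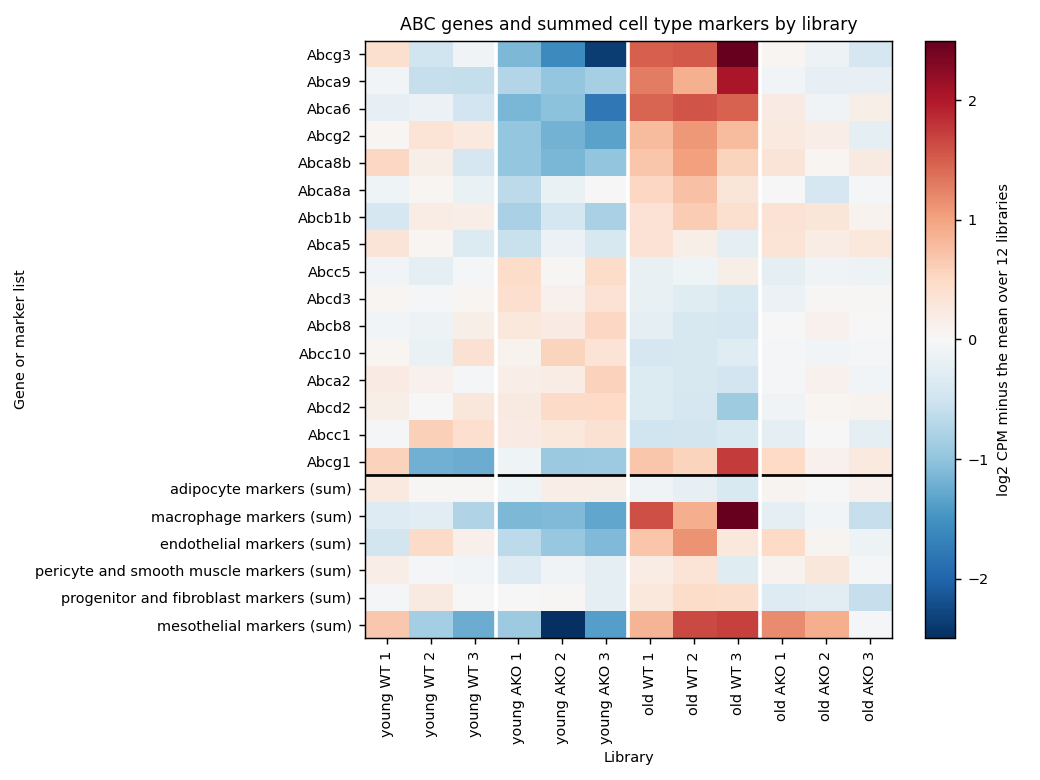
The 15 called members and Abcg1 (rows above the line) and the summed CPM of 6 cell type marker lists (rows below it), in each of the 12 libraries, as log2 CPM minus the row's mean. Abcg3, Abca9 and Abcg1 are highest in old WT replicate 3, the library with the highest macrophage marker sum (5999 CPM), and the 3 young AKO libraries are lowest for Abcg3, Abca6 and Abcg2.

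The main sterol exporter Abca1 did not pass the test in any comparison. It carries cholesterol and phospholipid to apolipoprotein A-I and had 464, 393 and 364 CPM in young WT, 346, 508 and 534 in young AKO, 374, 328 and 309 in old WT and 365, 434 and 399.9 in old AKO. Groups overlapped in all 4 comparisons, with log2 differences from -0.27 ± 0.16 for age in WT to 0.25 ± 0.16 for genotype in old mice (edgeR, adjusted p = 0.244 and 0.408). Abcg1, which passes cholesterol to high-density lipoprotein, varied far more between libraries, with 53.3, 15.5 and 15.1 CPM in young WT, 32.96, 18.8 and 19.02 in young AKO, 57.4, 52.5 and 119 in old WT and 50.7, 38.3 and 42.2 in old AKO. Young WT replicate 1 lay with the old libraries, and old WT replicate 3 was the highest of all. The age difference in WT was 1.45 ± 0.49 and missed the threshold (edgeR, adjusted p = 0.0556). It was 2.31 without young WT replicate 1 (adjusted p = 0.00332), 0.96 without old WT replicate 3 (adjusted p = 0.209), and 1.83, adjusted p = 0.00263 without both (edgeR). Old AKO against old WT gave -0.80 ± 0.48 (edgeR, adjusted p = 0.363), with no overlap between the groups, and old against young AKO 0.89 ± 0.49 (edgeR, adjusted p = 0.216). Without both libraries the latter was called (0.90, adjusted p = 0.0146, edgeR).

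Of the other sterol transporters, Abcg4 averaged 0.983 FPKM and was not called. Abcg5 and Abcg8, which together return plant sterols and cholesterol to bile and gut, had at most 30 and 5 reads in any library, Abcg5 not called and Abcg8 not tested. Around Abca1 and Abcg1, 22 genes of cholesterol efflux and the liver X receptor pathway were tested. In young mice 0 of them differed by genotype, against 0.976% of all genes. In old AKO 4 were lower than in old WT, against 5.16% of all genes. They were Soat1, which esterifies cholesterol (-2.63 ± 0.52, adjusted p = 0.0198), Nceh1, a cholesterol ester hydrolase (-3.43 ± 0.69, adjusted p = 0.0214), the lysosomal lipase Lipa (-1.87 ± 0.47, adjusted p = 0.0426) and the phospholipid transfer protein Pltp (-1.24 ± 0.31, adjusted p = 0.0428, all edgeR). With age in WT 4 rose, among them Pltp (2.44 ± 0.32, adjusted p = 0.00219), Soat1 (2.99 ± 0.53, adjusted p = 0.00590) and Nceh1 (3.56 ± 0.70, adjusted p = 0.00768), and 3 fell, among them Rxra, the partner receptor (-0.85 ± 0.12, adjusted p = 0.00357, edgeR). Soat1 had 23.3, 12.9 and 72.8 CPM in the 3 old WT libraries and Nceh1 25.7, 13.9 and 115 CPM. Lipa had 141, 85.3 and 439 CPM there and Pltp 382, 246 and 752 CPM. Replicate 3, the library with the highest macrophage marker sum, was highest for all 4 genes. Fits without it are not reported here for these genes, and the part of macrophages in their values was not tested. In AKO 2 rose with age, Pltp (1.65 ± 0.31, adjusted p = 0.00853) and Mylip (1.05 ± 0.25, adjusted p = 0.0200), and 3 fell, among them Rxra (-0.50 ± 0.12, adjusted p = 0.0213, edgeR). Of all genes, 14.2% rose and 8.73% fell with age in WT, and 10.4% rose and 7.93% fell in AKO. The receptor genes themselves, Nr1h3 at 115, 119 and 114 CPM in old WT and Nr1h2 at 80.1, 84.5 and 82.5 CPM, were not called in any comparison.

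Of the peroxisomal transporters, Abcd2 fell with age in WT and Abcd3 in AKO. Abcd2, which carries very long-chain and polyunsaturated acyl-CoAs, had 863, 774 and 949 CPM in young WT, 907, 1089 and 1095 in young AKO, 617, 582 and 423 in old WT and 738, 807 and 826 in old AKO. The old WT libraries were below all others, with replicate 3 lowest. Abcd2 fell with age in WT by a log2 difference of -0.67 ± 0.15 (edgeR, adjusted p = 0.0116), or -0.54, adjusted p = 0.0222 without the 2 libraries that stand apart, and the call was kept in all 12 fits that leave out 1 library. In AKO the age difference was -0.38 ± 0.15 and not called (edgeR, adjusted p = 0.0941), although the groups did not overlap, and it was called without those libraries (-0.38, adjusted p = 0.0344, edgeR). Old AKO stood above old WT by 0.55 ± 0.15 and missed the threshold (edgeR, adjusted p = 0.0570), and young AKO above young WT by 0.26 ± 0.15 with overlapping libraries (edgeR, adjusted p = 0.371). Summed adipocyte markers also had their lowest values in old WT, but with overlap. Old WT replicate 1 (39459 CPM) lay above young AKO replicate 1 (38896 CPM). Of the 12 adipocyte markers, 5 were lower in old than in young WT and 3 higher in old AKO than in old WT. The shares of all genes were 8.73% and 0.796%. The part of the adipocyte share in the Abcd2 values was not tested.

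Abcd3, which carries branched-chain and dicarboxylic acyl-CoAs, had 123, 115 and 122 CPM in young WT, 158, 129 and 153 in young AKO, 105, 96.8 and 91.6 in old WT and 107, 122 and 122 in old AKO. It fell with age in AKO by 0.33 ± 0.10 on the log2 scale (edgeR, adjusted p = 0.0423), and the difference in WT was -0.30 ± 0.10 (edgeR, adjusted p = 0.0511). The AKO call was lost without young WT replicate 2, young AKO replicate 1 or 3, old WT replicate 1 or 2, or any 1 of the old AKO libraries (adjusted p up to 0.165). Abcd4, the lysosomal cobalamin transporter, averaged 7.09 FPKM and was not called. Of 15 peroxisomal partners tested, 0 differed by genotype at either age, against 0.976% (young) and 5.95% (old) of all genes. With age 6 of the partners fell in WT and 3 in AKO, against 8.73% and 7.93% of all genes. Those of WT included the thiolase gene Scp2 (-0.78 ± 0.13, adjusted p = 0.00520), Pex3 (-0.69 ± 0.17, adjusted p = 0.0172) and Crat (-0.46 ± 0.12, adjusted p = 0.0187). In AKO they were Acaa1a (-0.36 ± 0.08, adjusted p = 0.0163), Scp2 (-0.56 ± 0.13, adjusted p = 0.0193) and Pex16 (-0.58 ± 0.15, adjusted p = 0.0283, all edgeR).

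**Figure D4:**
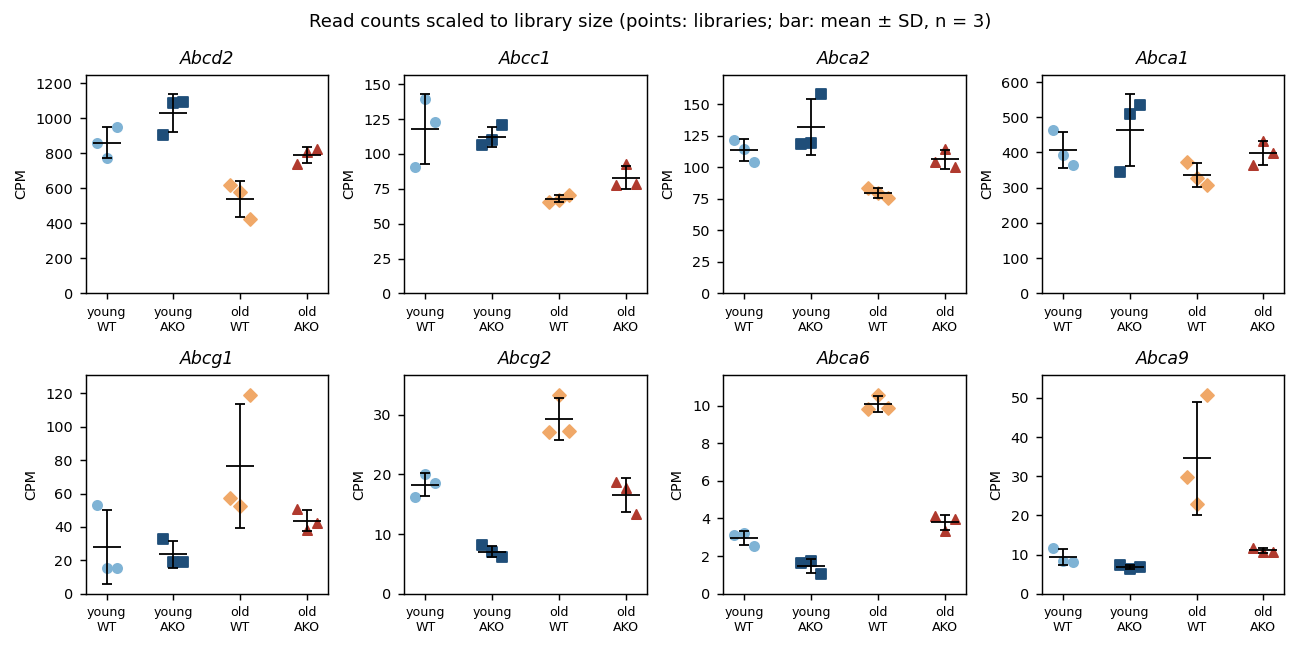
CPM of 8 ABC genes in each library (points) with the mean ± SD of each group (bars, 3 libraries), on axes that start at 0. Abcd2, Abcc1 and Abca2 are lowest in old WT, Abcg2, Abca6 and Abca9 are highest there, and the groups of Abca1 overlap.

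Among the ABCA genes outside the cluster, Abca2 was the only one called. It is an endosomal and lysosomal sterol and lipid transporter and had 122, 115 and 104 CPM in young WT, 119, 119.8 and 158 in young AKO, 83.98, 79.7 and 75.5 in old WT and 104, 115 and 100.4 in old AKO. The old WT libraries lay below all others. Its age difference in WT was -0.51 ± 0.12 (edgeR, adjusted p = 0.0137), called in all 12 fits that leave out 1 library but not without both libraries that stand apart (-0.43, adjusted p = 0.0571). Old AKO stood above old WT by 0.42 ± 0.12, without passing the test (edgeR, adjusted p = 0.0657). Abca3, which loads phospholipid into lamellar bodies in the lung, was expressed at 21.4 FPKM and was not called. Abca7, a phospholipid transporter of phagocytes, at 3.17 FPKM, and Abca4, the retinal transporter, at 0.131 FPKM, were not called either. Of 15 genes of lysosomal and lamellar lipid handling, 0 differed by genotype at either age, against 0.976% (young) and 5.95% (old) of all genes. With age in WT 3 rose, among them Ugcg (0.53 ± 0.12, adjusted p = 0.0129) and Asah1 (0.58 ± 0.18, adjusted p = 0.0397), and Cers2 fell (-0.42 ± 0.09, adjusted p = 0.0116). In AKO Ugcg rose (0.63 ± 0.12, adjusted p = 0.00917) and Mcoln1 fell (-0.31 ± 0.08, adjusted p = 0.0236, all edgeR). Of all genes, 14.2% rose and 8.73% fell with age in WT, and 10.4% rose and 7.93% fell in AKO.

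Both P-glycoprotein genes had their lowest mean in young AKO. Abcb1b had 17.3, 26.4 and 26.04 CPM in young WT, 13.4, 17.3 and 13.3 in young AKO, 29.999, 36.3 and 30.7 in old WT and 29.8, 28.8 and 24.9 in old AKO, and Abcb1a, its close copy on chromosome 5, had 17.9, 28.1 and 30.5 CPM in young WT, 19.5, 19.1 and 19.6 in young AKO, 32.8, 43.6 and 23.2 in old WT and 32.6, 33.7 and 27.96 in old AKO. Abcb1b rose with age in AKO by 0.93 ± 0.17 (edgeR, adjusted p = 0.00763), called in all 12 fits that leave out 1 library. Its age difference in WT was 0.48 ± 0.17 (edgeR, adjusted p = 0.0651) and its genotype difference in young mice -0.67 ± 0.17 (edgeR, adjusted p = 0.0759), neither called. The genotype difference was called without young WT replicate 1 (-0.84, adjusted p = 0.0260) and without both libraries that stand apart (-0.85, adjusted p = 0.0169, edgeR). Abcb1a gave 0.69 ± 0.23 with age in AKO, not called (edgeR, adjusted p = 0.0562), and 0.70, adjusted p = 0.00375 without those libraries. The 2 genes are near-identical in places, so their reads may be divided between them with error. P-glycoprotein is abundant in the endothelium of many tissues. Of the 12 endothelial markers, 9 were higher with age in AKO and 3 with age in WT. Between the genotypes, 1 of them was lower in young AKO and 0 differed in old mice. The part of endothelial cells in the values of these 2 genes was not tested. Abcb4, a phosphatidylcholine transporter known from bile, averaged 0.813 FPKM and was not called.

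Of the mitochondrial ABCB genes, 1 was called. Abcb8, linked to a mitochondrial potassium channel and to iron export, had 71.6, 68.9 and 82.9 CPM in young WT, 89.96, 86.6 and 107 in young AKO, 64.003, 56.5 and 55.9 in old WT and 75.5, 80.6 and 74.1 in old AKO. It was lower in old than in young WT by -0.34 ± 0.11 (edgeR, adjusted p = 0.0415), a call lost without young WT replicate 3, old WT replicate 2 or 3, or old AKO replicate 1 or 2 (adjusted p up to 0.149), and without both libraries that stand apart (adjusted p = 0.0872). Old AKO lay above old WT by 0.38 ± 0.11, not called (edgeR, adjusted p = 0.0603). Abcb10, needed for haem synthesis, had 27.97, 31.8 and 33.1 CPM in young WT, 39.4, 34.3 and 39.7 in young AKO, 30.2, 27.7 and 23.8 in old WT and 32.4, 31.5 and 33.5 in old AKO. It was not called, nor was Abcb6, a porphyrin transporter, at 12.8 FPKM. Of 21 iron-sulphur and haem genes, 0 differed by genotype at either age, against 0.976% (young) and 5.95% (old) of all genes. With age in WT 5 fell, among them Alad (-0.79 ± 0.21, adjusted p = 0.0213), Ppox (-0.33 ± 0.09, adjusted p = 0.0216) and Isca1 (-0.33 ± 0.09, adjusted p = 0.0243), and 1 rose, the iron importer Slc25a37 (0.82 ± 0.21, adjusted p = 0.0181). In AKO 4 fell, among them Slc25a28 (-0.43 ± 0.08, adjusted p = 0.00893), Ppox (-0.34 ± 0.09, adjusted p = 0.0251) and Alad (-0.76 ± 0.21, adjusted p = 0.0300, all edgeR). Of all genes, 14.2% rose and 8.73% fell with age in WT, and 10.4% rose and 7.93% fell in AKO.

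Abcb9, the lysosomal peptide transporter, averaged 8.49 FPKM and was not called. Its relatives of antigen presentation carry other symbols: Tap1 and Tap2, which bring peptides to MHC class I, were not called in any comparison, with 31.01, 35.6 and 40.4 and 78.6, 91.7 and 95.4 CPM in young WT and 37.05, 35.2 and 32.98 and 86.5, 95.7 and 83.5 CPM in old WT. The chloride channel Cftr, also an ABC protein, had at most 24 reads in a library and was not called. Among 13 genes of class I peptide loading, the immunoproteasome subunit Psmb8 rose with age in WT (0.57 ± 0.16, adjusted p = 0.0309) and in AKO (0.60 ± 0.16, adjusted p = 0.0313, edgeR), and the others were not called in any comparison. Of all genes, 14.2% rose with age in WT and 10.4% in AKO.

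The conjugate exporter Abcc1 was the ABCC gene with the clearest age difference. It expels glutathione conjugates and leukotriene C4 and had 90.6, 139.6 and 123 CPM in young WT, 106, 110.2 and 120.4 in young AKO, 65.7, 67.1 and 70.6 in old WT and 77.6, 92.5 and 78.7 in old AKO. All 3 old WT libraries lay below the young WT libraries, by a log2 difference of -0.80 ± 0.14 (edgeR, adjusted p = 0.00585), kept in all 12 fits that leave out 1 library and at -0.998, adjusted p = 0.00130 without the 2 libraries that stand apart. In AKO the age difference was -0.44 ± 0.14 and missed the threshold (edgeR, adjusted p = 0.0526), but was called without those libraries (-0.43, adjusted p = 0.0115, edgeR). Abcc10, a drug exporter, had 12.9, 11.1 and 16.2 CPM in young WT, 13.3, 18.5 and 15.8 in young AKO, 9.31, 9.52 and 10.2 in old WT and 12.2, 11.9 and 12.2 in old AKO. It was lower in old than in young WT by -0.47 ± 0.15 (edgeR, adjusted p = 0.0425), a call lost without young WT replicate 3, young AKO replicate 3, old AKO replicate 1 or 2, or any 1 of the old WT libraries (adjusted p up to 0.160), and without both libraries that stand apart (-0.55, adjusted p = 0.0626). The main transcript of Abcc10 took 0% to 74.4% of its reads in different libraries, and on its own gave 0.054 for this comparison (edgeR, adjusted p = 0.987), so its direction depends on summing the transcripts.

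Of the cyclic nucleotide exporters, Abcc5 was called, and Abcc4 was called only when libraries were left out or in other fits. Abcc5 had 65.7, 58.1 and 67.4 CPM in young WT, 94.3, 69.97 and 94.9 in young AKO, 60.4, 63.6 and 75.9 in old WT and 57.8, 64.7 and 62.6 in old AKO, and fell with age in AKO by 0.49 ± 0.13 on the log2 scale (edgeR, adjusted p = 0.0299). Young AKO was its highest group, and the call was lost without young AKO replicate 1 or 3, old WT replicate 2 or any 1 of the old AKO libraries (adjusted p up to 0.112). Abcc4, which exports cyclic AMP and prostaglandins, had 7.23, 16.2 and 10.4 CPM in young WT, 7.98, 6.28 and 6.52 in young AKO, 13.4, 16.8 and 12.6 in old WT and 12.6, 10.02 and 10.6 in old AKO. Its differences of -0.70 ± 0.25 for genotype in young mice (edgeR, adjusted p = 0.154) and 0.68 ± 0.25 for age in AKO (edgeR, adjusted p = 0.0810) did not pass the test with all libraries. The genotype difference was called without young WT replicate 1 (-0.94, adjusted p = 0.0419), and both were called without both libraries that stand apart, at -0.95, adjusted p = 0.0326 and 0.68, adjusted p = 0.0251 (edgeR). Abcc3, a bile acid and glucuronide exporter, averaged 5.44 FPKM and was not called. Of 16 xenobiotic and conjugation genes tested, Gsta4 was higher in AKO at both ages (1.69 ± 0.19, adjusted p = 0.00730 in young and 1.82 ± 0.19, adjusted p = 0.00562 in old) and no other differed by genotype. With age in WT 4 fell, among them Gclc (-0.59 ± 0.12, adjusted p = 0.00746), Gsr (-0.49 ± 0.10, adjusted p = 0.0101) and Slc22a5 (-0.56 ± 0.14, adjusted p = 0.0200), and Ephx1 rose (1.40 ± 0.37, adjusted p = 0.0219). In AKO Ephx1 rose (2.13 ± 0.38, adjusted p = 0.00689) and Gclm fell (-0.45 ± 0.12, adjusted p = 0.0265, all edgeR). Of all genes, 0.186% and 0.796% were higher in AKO in young and old mice. With age 14.2% of all genes rose and 8.73% fell in WT, and 10.4% rose and 7.93% fell in AKO.

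Abcc9, the sulphonylurea receptor of vascular ATP-sensitive potassium channels and a gene of pericytes and smooth muscle, had 26.5, 52.3 and 47.6 CPM in young WT, 33.6, 23.8 and 21.3 in young AKO, 74.2, 88.6 and 45.9 in old WT and 49.9, 40.3 and 42.4 in old AKO. The old WT mean was highest and the young AKO mean lowest, but WT and AKO libraries overlapped at both ages. No comparison passed the test, with log2 differences of -0.68 ± 0.29 and -0.65 ± 0.29 for genotype in young and old mice (edgeR, adjusted p = 0.223 and 0.213) and 0.72 ± 0.29 and 0.75 ± 0.29 for age in WT and AKO (edgeR, adjusted p = 0.0915 and 0.0902). Without both libraries that stand apart, all 4 comparisons were called, at -0.94, adjusted p = 0.0267, -0.87, adjusted p = 0.0391, 0.69, adjusted p = 0.0395 and 0.76, adjusted p = 0.0120 in the same order (edgeR). Its pore subunit Kcnj8 had 15.5, 33.3 and 26.6 CPM in young WT, 21.3, 13.2 and 13.7 in young AKO, 45.7, 47.7 and 25.96 in old WT and 27.5, 20.6 and 22.8 in old AKO and was not called either. Pericyte and smooth muscle markers summed to 1305 to 1532 CPM in young WT, 1093 to 1292 in young AKO, 1108 to 1738 in old WT and 1339 to 1669 in old AKO. Of these 10 markers, 1 was lower in young AKO, 0 differed between the old genotypes, 1 was higher with age in WT and 4 with age in AKO, and their part in the Abcc9 values was not tested. Abcc8, the receptor of the pancreatic channel, had at most 21 reads in a library, as had Abcc12, and its pore subunit Kcnj11 at most 4. Neither ABCC gene was called.

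No ribosome-acting member was called in any comparison. Abce1, which splits ribosomes after termination, had 69.03, 79.5 and 75.2 CPM in young WT, 97.6, 70.9 and 69.7 in young AKO, 70.4, 66.8 and 69.6 in old WT and 67.1, 63.4 and 72.3 in old AKO. Abcf1, an initiation factor, had 84.2, 84.1 and 90.9 CPM in young WT, 99.7, 92.6 and 97.8 in young AKO, 68.4, 79.1 and 78.2 in old WT and 83.2, 85.03 and 79.3 in old AKO. Abcf2 and Abcf3 averaged 20.6 FPKM and 15.4 FPKM. Of 12 translation partners, only Gcn1l1, an activator of the eIF2 kinase that works with ABCF3-related factors in yeast, was called, falling with age in WT (-0.34 ± 0.08, adjusted p = 0.0130, edgeR). Of all genes, 8.73% fell in that comparison.

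The genotype effects at the 2 ages were also compared with each other. In the test of the difference of the genotype effects, 0 of the 39 tested members were called, against 0.00664% of all genes, and the smallest adjusted p of a member was 0.507 (edgeR). An unadjusted p under 0.05 was reached by 3 of the 39 members, against 1409 of all 15068 genes tested (edgeR). These 3 were Abca9 (log2 difference of the effects -1.19), Abcc5 (-0.55) and Abcg2 (0.55). DESeq2 called 0 members as well. A member called at one age and not at the other is therefore not shown to differ between ages.

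The 11 members without enough reads to test were Abca12, Abca13, Abca14, Abca15, Abca16, Abca17, Abcb5, Abcb11, Abcc2, Abcc6 and Abcg8. Abca15, Abcb5 and Abcb11, the last being the bile salt export pump of the liver, had 0 reads in all 12 libraries. Abca12, the keratinocyte lipid transporter, and Abca13 had at most 2 reads in a library. Abca14 had at most 19, Abca16 at most 14 and Abca17 at most 17. Abcc2, the conjugate exporter of the bile canaliculus, had at most 13 reads, and Abcc6, mutated in pseudoxanthoma elasticum and known from liver, at most 8. With 45935795 to 61125366 reads per library, these genes were at or near the limit of detection, and no difference between groups could be seen at this depth.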

How the data were processed

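Poly-A RNA with a RIN above 7 was sequenced on a HiSeq4000 from TruSeq mRNA libraries, per the labels' protocols. The tools named in the submitters' processing notes, without their roles, are StringTie 1.3.4d, Bowtie2, HISAT and HISAT2 2.1.0, and the build is mm10. The table deposited by the authors lists 36779 transcripts, each with an estimated count and an FPKM per library. A line of it was empty. Whether counting used strand is not given in the sources used here, and 9 tested members have other exons on the opposite strand over theirs.

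Estimated counts, whole numbers as deposited, were summed per gene symbol, scaled by TMM and filtered with filterByExpr, leaving 15068 genes (edgeR 4.0.16, R 4.3.3, limma 3.58.1, DESeq2 1.42.0). The edgeR quasi-likelihood F-test was fitted on all 12 libraries with a mean per group, two-sided, with Benjamini-Hochberg adjustment over all genes tested. Replicates varied with a biological coefficient of variation of 24.7% (8 residual degrees of freedom). Depth was 45935795 to 61125366 estimated reads per library. FPKM values, as deposited by the authors and summed per symbol, serve to compare genes and as an alternative on the log2(FPKM + 1) and log2(FPKM + 0.1) scale. Promoter windows are RefSeq's.

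Members and lists were chosen with earlier results of these data known. Named genes are the called members, the 3 most abundant members of each subfamily, 12 members chosen by role, and up to 4 called genes per pathway list and comparison; a few of these are not reported here. Python 3.11.15, pandas 2.3.3 and matplotlib 3.10.9 were used for tables and figures.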

Additional observations from a re-analysis of the deposited data

How the results depend on the processing

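The number of members called depended on the setting. In young mice 3 members were called between the genotypes: DESeq2 called 8 (3 higher and 5 lower), limma-voom 1, log2(FPKM + 1) 1, the fit with the replicate number as a block 1, the fit of only the groups compared 0, the fit without old WT replicate 3 and young WT replicate 1 8, and transcripts not summed 1. Over all genes these settings called 1365, 9, 17, 54, 4, 856 and, as transcripts, 27, against 147 in the fit used above. In old mice (5 members) DESeq2 called 10 (5 higher and 5 lower), the stricter filter on low counts 9 (4 higher and 5 lower), the replicate block 0, only the groups compared 1 and transcripts not summed 0. The same settings called 1891, 897, 12, 205 and, as transcripts, 16 over all genes, against 897 in the fit used above. With age in WT (11 members) DESeq2 called 17, only the groups compared 6 and transcripts not summed 7. Over all genes the numbers were 4610, 1058 and, as transcripts, 1640, against 3451. With age in AKO (8 members) DESeq2 called 17, only the groups compared 15, the fit without those 2 libraries 16 and transcripts not summed 4. Over all genes the numbers were 3869, 3532, 4100 and, as transcripts, 1019, against 2766. Leaving out each library in turn gave 0 to 5 and 0 to 6 members for genotype in young and old, and 6 to 12 and 4 to 13 for age in WT and AKO. The test of the difference between ages called 0 members under every setting run, and could not be fitted with only the groups compared, since it uses all 4.

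The split of calls moved under limma-trend on FPKM, which changes both the values and the test, and little with RLE scaling alone. With age in WT it was 6 higher and 5 lower, against 6 and 6 with RLE scaling and 12 and 3 on log2(FPKM + 1) and on log2(FPKM + 0.1). With age in AKO it was 6 and 2, against 6 and 1 with RLE scaling, 6 and 0 on log2(FPKM + 1) and 7 and 0 on log2(FPKM + 0.1). The last scale put the median of all genes at 0.17 (WT) and 0.14 (AKO), against 0.03 and -0.01. Over all genes the called number ranged, across settings other than leaving out a library, from 4 to 1365 and 12 to 1891 for genotype in young and old, and from 1058 to 4610 and 1019 to 4100 for age in WT and AKO. Leaving out 1 library gave 5 to 464, 4 to 1037, 1511 to 4436 and 732 to 3771 in the same order. With transcripts not summed, the main transcript of Abcc10 gave 0.054 for age in WT against -0.47, and was the 1 reversal among 2277 alternative values of 99 single-gene results, of which 1848 kept their direction and side of the threshold. No pairing of the libraries by replicate number was visible. Same-numbered libraries correlated at -0.20 to 0.068, and the best match had the same number for 7 of 36 library and group pairs. With 3 libraries per group, a weak pairing could be missed by these values. Members under 1 FPKM rest on few reads, which limits what a difference can show.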
